A study of Mus musculus with 12 samples.

Results

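Fat grafts to which ASC (adipose-derived stem cells, in the field's common usage) had been added were compared with control fat grafts. The comparison takes 8 of the 12 libraries of the series, the 4 named CAL and the 4 named Control in the labels, and covers every gene of the deposited count table: 18551 of 19547 genes had enough counts to be tested. All samples were adipose tissue of wild type C57BL/6 mice aged 16 weeks, taken as grafts at 8 weeks. The control group is labelled as control fat grafts with no further agent named. CAL grafts (cell-assisted lipotransfer) had ASC added, and the labels do not give the source, dose or number of those cells. The remaining 4 libraries, CAL_Dll4i, had ASC and Dll4 inhibition and served here only in the shared estimate of the spread between libraries. Whether the samples are separate animals is not stated in the labels, and p-values here rest on the spread between these libraries, part of which may be technical.

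Grafted fat loses its blood supply, and its adipocytes die or survive according to how soon vessels regrow. Dead adipocytes are cleared by macrophages, which take up their lipid and degrade it in lysosomes, while stromal progenitors either form new adipocytes or lay down matrix. ASC are added to grafts because they secrete angiogenic and anti-inflammatory factors and can become adipocytes. In RNA from whole grafts, fewer cells of a type and less RNA per cell cannot be told apart.

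Total counts of the 8 libraries ran from 55883051 to 69575479. The most abundant feature, Rn18s-rs5, took 3.48% to 5.87% of the counts. Adipocyte and macrophage genes were abundant in every library, for example Fabp4 at 337 CPM or more (CPM, the count unit scaled for library depth, here after TMM normalisation) and Adgre1 at 466 CPM or more. Muscle RNA set CAL 1 and CAL 2 apart: the 13 tested skeletal muscle genes summed to 2710 and 4667 CPM there, and to between 93.9 and 266 CPM in the other 6 libraries. Acta1, skeletal muscle actin, stood at 1.67, 1.33, 0.435 and 0.393 CPM in controls 1 to 4 and at 28.1, 74.5, 0.414 and 1.58 CPM in CAL 1 to 4. Over the whole table, 19 genes were at least 4-fold higher in both CAL 1 and CAL 2 than in each of the other 6 libraries. Each result below was therefore also computed without CAL 1 and CAL 2, which leaves 2 CAL libraries against 4 controls. Lymphatic genes set CAL 3 apart from the other CAL libraries, and interferon genes CAL 4, as given with those genes.

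Grafts with added ASC differed from controls by many small shifts and by 1 gene that passed the test across all genes. Vsig8 rose in CAL by edgeR's quasi-likelihood test at a Benjamini-Hochberg adjusted p under 0.05 (0.00539% of 18551 genes), and no gene fell (0%). Before adjustment, p was under 0.05 for 1300 genes with higher levels in CAL (7.01%) and for 1405 with lower levels (7.57%). All 4 CAL libraries lay above all 4 controls for 669 genes (3.61%) and below them for 695 genes (3.75%). The median log2 fold change of all genes was -0.0067, and 48.4% of genes had a higher and 51.6% a lower estimate in CAL. DESeq2, which models the same counts with another estimate of spread, called 340 genes higher (1.83%) and 276 lower (1.49%) at the same threshold. Voom with sample weights called 55 higher (0.296%) and 17 lower (0.0916%). In simulated counts with 200 changed genes, DESeq2 made 41 false calls and edgeR and voom 6 each. Those counts were a single draw with edgeR's own estimates of spread and no shifts of whole libraries. They cannot rank the tools on the real counts, and genes called by DESeq2 alone are read with caution. Without CAL 1 and CAL 2, edgeR called 0 genes in either direction: by unadjusted p under 0.05, 853 stood higher (4.56%) and 771 lower (4.12%), and DESeq2 called 108 and 77. In that comparison CAL 3 and CAL 4 both lay above all controls for 8.38% of 18719 genes and below them for 9%, and 47.3% of genes had a higher and 52.7% a lower estimate. The shares in this paragraph are the ones to set beside the counts of every gene list below.

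**Figure D1:**
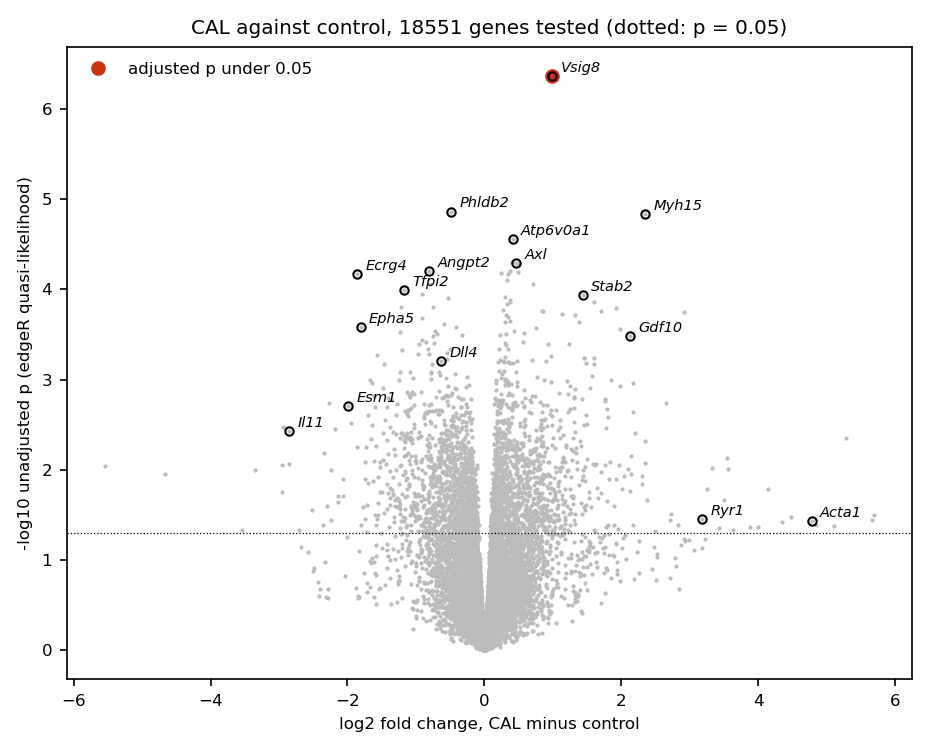
Each point is 1 of 18551 genes, with its log2 fold change (CAL minus control) on the horizontal axis and -log10 of its unadjusted edgeR p on the vertical axis; the dotted line lies at 0.05. The filled point, Vsig8, is the gene with an adjusted p under 0.05, while the muscle genes Acta1 and Ryr1 lie far to the right near the dotted line, with log2 fold changes of 4.78 and 3.18.

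Vsig8 encodes a membrane protein with immunoglobulin domains and lies on chromosome 1, 172555938 to 172563717 of GRCm38. Its level was 14.4, 16.0, 12.5 and 12.9 CPM in controls 1 to 4 and 29.6, 29.7, 24.9 and 26.9 CPM in CAL 1 to 4. The lowest CAL library lay well above the highest control, and the 2 libraries with muscle RNA were the highest of the 4. Group means ± SD were 14.0 ± 1.61 and 27.7 ± 2.32 CPM (n = 4 each). This was a 1.99-fold rise (log2 fold change 0.99 ± 0.10, estimate ± SE as in all estimates that follow, adjusted p = 0.00796 by edgeR's quasi-likelihood test). Without CAL 1 and CAL 2 the estimate was 0.89 ± 0.12, with an adjusted p of 0.257, so the call ended while the size changed little. The call also ended without CAL 1 alone (0.0517), without CAL 3 and CAL 4 (0.0632) and with only control and CAL libraries in the fit (0.0909). Vsig8 RNA is also known from hair follicles, and the part of such tissue in this difference was not tested. Krt5, the basal keratinocyte keratin, stood at 0.0845, 56.4, 6.26 and 99.3 CPM in controls 1 to 4 and 2.29, 1.67, 25.9 and 0.715 CPM in CAL 1 to 4.

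Myh15 encodes a myosin heavy chain and lies on chromosome 16, 49057400 to 49199563. Its levels were 1.39, 1.56, 1.74 and 1.14 CPM in controls and 5.39, 7.72, 5.18 and 11.3 CPM in CAL, again without overlap. The highest value belonged to CAL 4, and CAL 3 and CAL 1 lay close together. The estimate was 2.34 ± 0.33 (edgeR adjusted p = 0.0908) with all libraries and 2.50 ± 0.39 without CAL 1 and CAL 2. Myh15 did not pass by edgeR but was called by DESeq2 (adjusted p = 4.18e-09).

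Of the other 10 genes with the smallest p among those wholly above the controls, none passed by edgeR, with adjusted p of 0.0969 to 0.0998, and DESeq2 called all 10. They were ranked by p on the same counts, so those DESeq2 calls are no separate support. Atp6v0a1, a membrane subunit of the proton pump that acidifies lysosomes (chromosome 11, 101009422 to 101063719), stood at 374, 371, 366 and 357 CPM in controls and 494, 521, 450.1 and 488 CPM in CAL, an estimate of 0.41 ± 0.06. The 4 controls lay close together and every CAL library stood clear of them. Grn, which encodes the lysosomal and secreted protein progranulin, stood at 541, 544, 519.7 and 549.7 CPM in controls and 656, 632, 638 and 610.4 CPM in CAL (0.24 ± 0.04). Axl, a receptor tyrosine kinase through which phagocytes bind dying cells, stood at 240.0, 233, 209.6 and 249 CPM in controls and 337, 275, 324 and 344 CPM in CAL (0.46 ± 0.07), with CAL 2 the nearest to the controls. Tpcn1, a cation channel of endosomes and lysosomes, had an estimate of 0.33 ± 0.06, and its CAL values of 164, 166, 147 and 164 CPM again lay above 131, 128, 125 and 125 CPM in controls. The others were Engase (0.71 ± 0.12), a cytosolic glycosidase, Arhgap39 (0.50 ± 0.08) and Arhgap25 (0.35 ± 0.06), which switch off small GTPases, and Hs6st1 (0.40 ± 0.07), a heparan sulfate sulfotransferase. Phka2, a regulatory subunit of glycogen phosphorylase kinase, and Tmcc3, a protein of the endoplasmic reticulum membrane, had estimates of 0.37 ± 0.06 and 0.49 ± 0.08. The 12 estimates without CAL 1 and CAL 2 lay between 0.21 for Grn and 2.50 for Myh15; their sign was fixed by the choice of genes without overlap.

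Of the 12 genes with the smallest p among those wholly below the controls, none passed by edgeR (adjusted p of 0.0908 to 0.109), and DESeq2 called all 12. These too were ranked by p on the same counts, so the DESeq2 calls are no separate support. Phldb2, which anchors microtubules at cell adhesions (chromosome 16, 45746230 to 45953598), stood at 60.1, 62.3, 70.3 and 69.8 CPM in controls and 48.6, 48.2, 48.3 and 42.2 CPM in CAL (-0.49 ± 0.07). Angpt2, the angiopoietin that destabilises vessels (chromosome 8, 18690263 to 18741562, inside Mcph1, whose reads its counts may include), stood at 17.8, 20.9, 23.9 and 17.0 CPM and 11.8, 11.3, 12.5 and 9.81 CPM (-0.81 ± 0.13), so every control exceeded every CAL library. Tfpi2, a secreted Kunitz-type inhibitor of serine proteases (chromosome 6, 3962589 to 3988978), stood at 13.3, 17.6, 22.5 and 17.0 CPM in controls and 5.04, 8.64, 10.2 and 7.25 CPM in CAL, a 2.26-fold lower mean level by the fit (-1.18 ± 0.21). CAL 1, with muscle RNA, was the lowest of the 4.

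Ecrg4, a secreted precursor linked to growth arrest, had the steepest estimate of these 12 (-1.86 ± 0.31): 5.51, 4.64, 13.2 and 6.49 CPM in controls against 1.96, 1.94, 2.67 and 1.64 CPM in CAL. Control 3 was the highest by far, and the lowest control still exceeded the highest CAL library. Tspan6, a tetraspanin, had an estimate of -0.79 ± 0.14 and Tnfrsf26, a receptor of the TNF receptor family, -0.91 ± 0.16. Cdh11, the mesenchymal cadherin of fibroblasts, stood at 166, 169, 195 and 163 CPM in controls and 111, 119, 139.7 and 107 CPM in CAL (-0.54 ± 0.10). Plod2, a lysyl hydroxylase that prepares collagen for cross-linking, had an estimate of -0.75 ± 0.14. Cttnbp2, a cortactin-binding protein (-1.21 ± 0.22), Ankrd28 (-0.58 ± 0.11), Epha5, an ephrin receptor (-1.81 ± 0.35), and Katnbl1 (-0.41 ± 0.08) completed the group. Epha5 was near 1 CPM, with control 4 at 0.743 CPM close to the highest CAL value of 0.665 CPM. For these 12 the estimates without CAL 1 and CAL 2 ran from -1.79 for Ecrg4 to -0.38 for Katnbl1, again with the sign fixed by the choice.

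**Figure D2:**
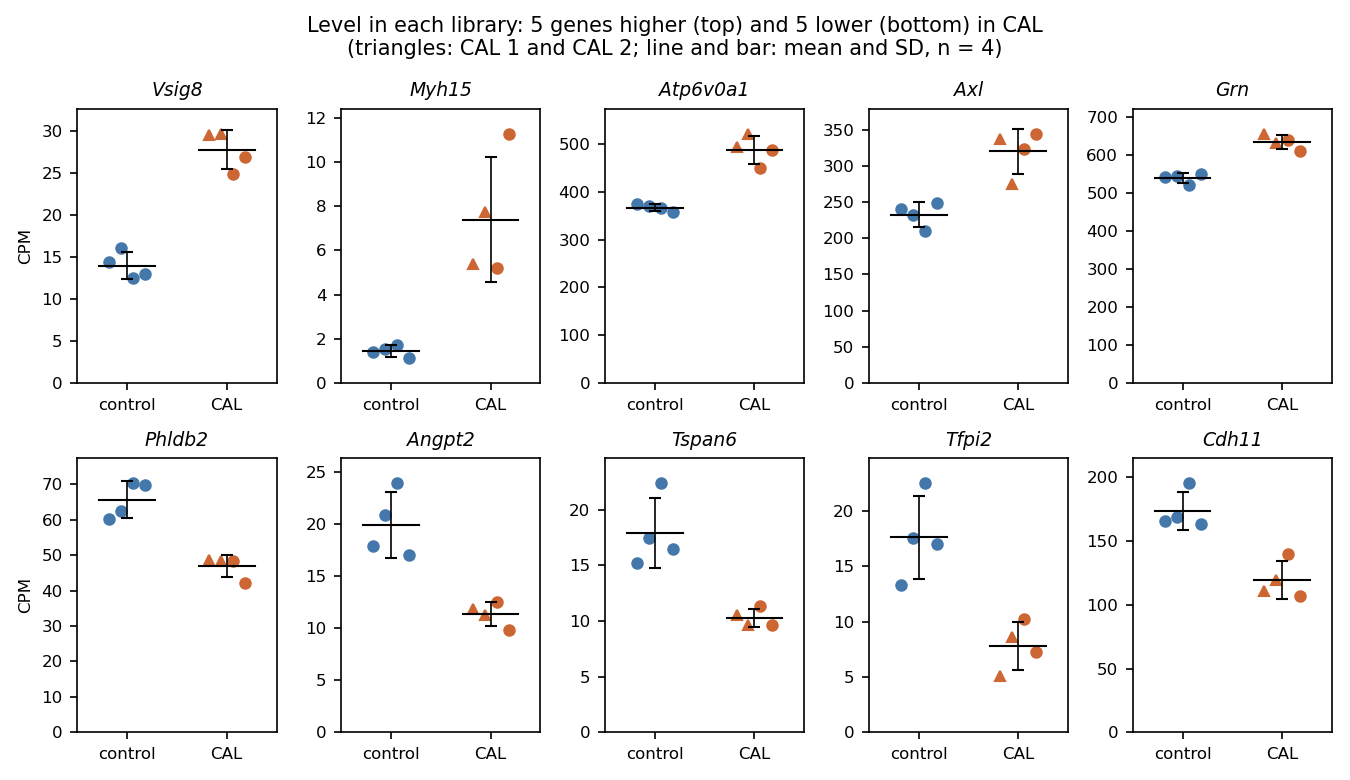
CPM in each library (linear axes from 0) for 5 genes wholly above the controls in CAL and 5 wholly below; triangles are CAL 1 and CAL 2, and black lines and bars are the mean and SD of 4 libraries. Vsig8 has a gap between control and CAL libraries that is wider than the range of either group (highest control 16.0, lowest CAL 24.9), and triangles and circles intermix in most CAL groups.

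The 250 bases before a listed start of 4 genes are shown because these genes stand for the main contrasts: Vsig8, the 1 called gene; Grn and Abca1 on the higher side; and Dll4 on the lower side. The sequences come from RefSeq on GRCm38.p6, 5′ to 3′ on the gene's strand, and for Vsig8 the more upstream of 2 listed starts was taken. The start used is the outer end of the annotated gene for Vsig8, Grn and Dll4 and lies 93 bases inside it for Abca1. Capitals mark matches on either strand to 4 motifs: the E-box CACGTG, which lysosomal regulators bind, the AP-1 motif TGANTCA, the CCAAT box, and the TATA box with the letters TATAAA; no matches overlapped.
Vsig8 (chr1:172555688-172555937, plus strand): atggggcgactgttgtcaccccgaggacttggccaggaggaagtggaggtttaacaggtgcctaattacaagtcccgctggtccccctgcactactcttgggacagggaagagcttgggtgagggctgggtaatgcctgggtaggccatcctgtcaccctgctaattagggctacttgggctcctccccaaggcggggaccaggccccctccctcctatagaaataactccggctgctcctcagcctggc
Grn (chr11:102430257-102430506, plus strand): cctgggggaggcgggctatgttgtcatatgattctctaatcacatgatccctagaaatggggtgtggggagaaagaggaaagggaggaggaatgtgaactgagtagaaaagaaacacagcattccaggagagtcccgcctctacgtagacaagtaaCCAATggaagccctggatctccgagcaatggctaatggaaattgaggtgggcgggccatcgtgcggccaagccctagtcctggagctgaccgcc
Abca1 (chr4:53159896-53160145, minus strand): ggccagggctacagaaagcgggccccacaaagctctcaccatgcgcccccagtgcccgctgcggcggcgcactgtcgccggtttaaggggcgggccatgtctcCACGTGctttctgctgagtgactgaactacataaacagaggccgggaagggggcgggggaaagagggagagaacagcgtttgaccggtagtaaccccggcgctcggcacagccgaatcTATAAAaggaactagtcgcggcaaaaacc
Dll4 (chr2:119325534-119325783, plus strand): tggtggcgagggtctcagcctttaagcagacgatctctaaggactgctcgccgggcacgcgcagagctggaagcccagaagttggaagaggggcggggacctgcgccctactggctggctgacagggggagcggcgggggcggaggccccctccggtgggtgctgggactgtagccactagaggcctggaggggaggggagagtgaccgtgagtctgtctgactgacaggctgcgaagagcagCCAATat
Vsig8 held none of the 4 motifs in this window, and Grn and Dll4 each held 1 CCAAT match. In Abca1 an E-box lay 147 to 142 bases and a TATA box 29 to 24 bases before the start. Of all 32851 RefSeq windows of this length, 6.02% held CACGTG, 6.75% TGANTCA, 33.8% CCAAT and 12.4% TATAAA. Windows were found for 10 of the 12 higher and 7 of the 12 lower leading genes, and a listed start can lie within the annotated gene. Any of a gene's windows held TGANTCA in 2 of the 10 and 1 of the 7, CCAAT in 1 and 1, TATAAA in 2 and 0, and CACGTG in 0 and 0, beside 7.82%, 37.5%, 14.3% and 6.86% of 27025 genes. A match describes the letters and no binding was measured.

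Ranking the genes by p without CAL 1 and CAL 2 named several further genes among those wholly above or below the controls in CAL 3 and CAL 4. Pltp, the phospholipid transfer protein of lipoproteins, stood at 226, 248, 230.1 and 229 CPM in controls and 294, 278, 311 and 380.1 CPM in CAL, so CAL 1 and CAL 2 were also above all controls (0.57 ± 0.08 without them, edgeR adjusted p = 0.257). Pdxk, pyridoxal kinase, stood at 68.3, 77.0, 75.3 and 68.3 and 73.9, 97.9, 93.3 and 102 CPM, with CAL 1 inside the control range. Klra17, a killer-cell lectin-like receptor gene, differed within the CAL group: 2.15, 3.61, 2.55 and 2.55 CPM in controls, 2.75, 2.53, 7.68 and 7.31 CPM in CAL, so that CAL 1 and CAL 2 lay among the controls. On the lower side, Reg3g, an antimicrobial lectin, stood at 22.3, 35.6, 37.9 and 35.9 CPM in controls and 10.2, 28.7, 11.8 and 10.5 CPM in CAL, where CAL 2 lay within the control range. Golm1, a Golgi membrane protein, and Ttll7, a tubulin polyglutamylase, had estimates of -0.39 ± 0.08 and -1.16 ± 0.24, and Adam30 of -2.19 ± 0.33 at under 1 CPM in all 8 libraries. None of these passed by edgeR (smallest adjusted p 0.257).

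Adipocyte genes had higher estimates in CAL. Of 22 tested markers 21 were higher, 17 of them at an unadjusted p under 0.05 (7.01% of all genes), 8 without overlap (3.61% of all genes) and 4 called by DESeq2 (1.83% of all genes). Their median log2 fold change was 0.91, and 1.01 without CAL 1 and CAL 2, where 22 of 22 were higher and 15 had an unadjusted p under 0.05 (4.56% of all genes). The mean log2 level of the list, relative to the control mean, was 0.36, -0.12, 0.72 and -0.95 in controls 1 to 4 and 1.10, 0.77, 0.80 and 1.46 in CAL 1 to 4. The lowest CAL library thus lay just above control 3, and control 4 was the lowest of all. Cidea, a lipid droplet fusion protein, stood at 0.237, 0.321, 0.33 and 0.323 CPM in controls and 1.08, 0.611, 0.679 and 0.806 CPM in CAL (1.38 ± 0.27). Lpl, lipoprotein lipase, stood at 830.5, 823, 931 and 766 and 1003, 1006, 999 and 989 CPM (0.26 ± 0.06), a shift of the same direction with far less spread within CAL than within controls. Car3, a carbonic anhydrase abundant in fat, stood at 243, 190.5, 310.4 and 123 CPM in controls and 450.3, 329.5, 348 and 463 CPM in CAL. Lep, the satiety hormone leptin, ran at 9.04, 4.25, 12.1 and 1.75 CPM and 16.5, 15.0, 14.6 and 31.8 CPM (1.52 ± 0.56), without overlap. Adipoq (adiponectin) and Plin1 (perilipin) overlapped between groups: Adipoq stood at 87.0, 62.5, 117 and 35.8 CPM in controls and 138, 109, 116 and 172 CPM in CAL, and control 3 exceeded CAL 2 and CAL 3. Pparg, the master regulator of adipocytes, had an estimate of 0.52 ± 0.19, Fabp4 of 0.34 ± 0.11 and Plin1 of 0.79 ± 0.39.

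Lipid handling genes shared the direction. For lipid droplet and lipolysis genes 16 of 20 were higher, 10 at an unadjusted p under 0.05 (7.01% of all genes) and 5 without overlap (3.61%). Against these, 1 was lower at that p (7.57%). Without CAL 1 and CAL 2, 17 were higher, 10 at that p (4.56%). The median was 0.66, 0.75 without CAL 1 and CAL 2, 0.44 without control 4 and 0.49 without CAL 4. The groups overlapped by library, with control 3 at 0.46 and CAL 2 at 0.35 relative to the control mean. Mgll, which completes the hydrolysis of triglyceride, stood at 65.2, 51.8, 60.4 and 42.3 CPM in controls and 88.0, 71.1, 85.6 and 107 CPM in CAL (0.68 ± 0.17). Plin4, a droplet coat protein, had an estimate of 1.03 ± 0.32 and Adrb1, a receptor of catecholamines, 0.97 ± 0.23. Genes of fatty acid and triglyceride synthesis were higher in 19 of 22 cases, at a median of 0.32, or 0.18 without control 4. At an unadjusted p under 0.05, 10 were higher (7.01% of all genes) and 0 lower (7.57%). In CAL 3 and CAL 4 alone 21 of 22 were higher, 6 at that p (4.56%). Scd1, the stearoyl-CoA desaturase, stood at 601, 403, 552 and 295 CPM in controls and 735, 777, 892 and 933 CPM in CAL (0.85 ± 0.21), and all 4 CAL libraries exceeded control 1, the highest control. Pck1, which supplies glycerol for triglyceride in fat, had an estimate of 1.33 ± 0.36, with control 4 at 19.9 CPM and CAL 4 at 154 CPM. Lpin1, a phosphatidate phosphatase, had 0.43 ± 0.12, and Gpam, an acyltransferase of the first step, 0.49 ± 0.15.

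Transcription factors of fat differed among themselves. Of 21 tested, 7 were higher and 3 lower at an unadjusted p under 0.05 (7.01% and 7.57% of all genes). Without CAL 1 and CAL 2 there were 4 and 1 (4.56% and 4.12%). The median was 0.18, and 0.076 without CAL 4. Ppargc1a, the coactivator of mitochondrial biogenesis, stood at 3.23, 2.28, 1.67 and 2.44 CPM in controls and 8.07, 4.63, 4.36 and 8.70 CPM in CAL (1.42 ± 0.35). Klf15 had 0.99 ± 0.27 and Nr1h3, the oxysterol sensor LXR alpha, 0.46 ± 0.14. Cebpd, an early adipogenic factor, went the other way (-0.63 ± 0.20), with control 3 at 23.1 CPM. In the insulin and hormone response list 9 of 19 genes were higher and 2 lower at an unadjusted p under 0.05 (7.01% and 7.57% of all genes). Without CAL 1 and CAL 2 these were 7 and 1 (4.56% and 4.12%). The lower genes of that list included Igfbp3, which binds insulin-like growth factors. Igfbp3 stood at 13.7, 13.5, 13.9 and 15.3 CPM in controls and 6.92, 5.17, 12.1 and 8.58 CPM in CAL (-0.78 ± 0.25). Fatty acid oxidation genes had 18 of 20 higher estimates, 3 at an unadjusted p under 0.05 (7.01% of all genes). Their median was 0.11 (0.068 without control 4, 0.18 without control 3). Without CAL 1 and CAL 2, 5 were higher at that p (4.56%). Acadm, a mitochondrial dehydrogenase, and Ehhadh, a peroxisomal enzyme, had 0.38 ± 0.11 and 0.53 ± 0.15. Among 21 nuclear genes of oxidative phosphorylation (median 0.05) Atp5a1, the ATP synthase alpha subunit, stood at 309.8, 288, 305 and 293 CPM in controls and 374, 356, 338 and 332 CPM in CAL (0.23 ± 0.05).

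**Figure D3:**
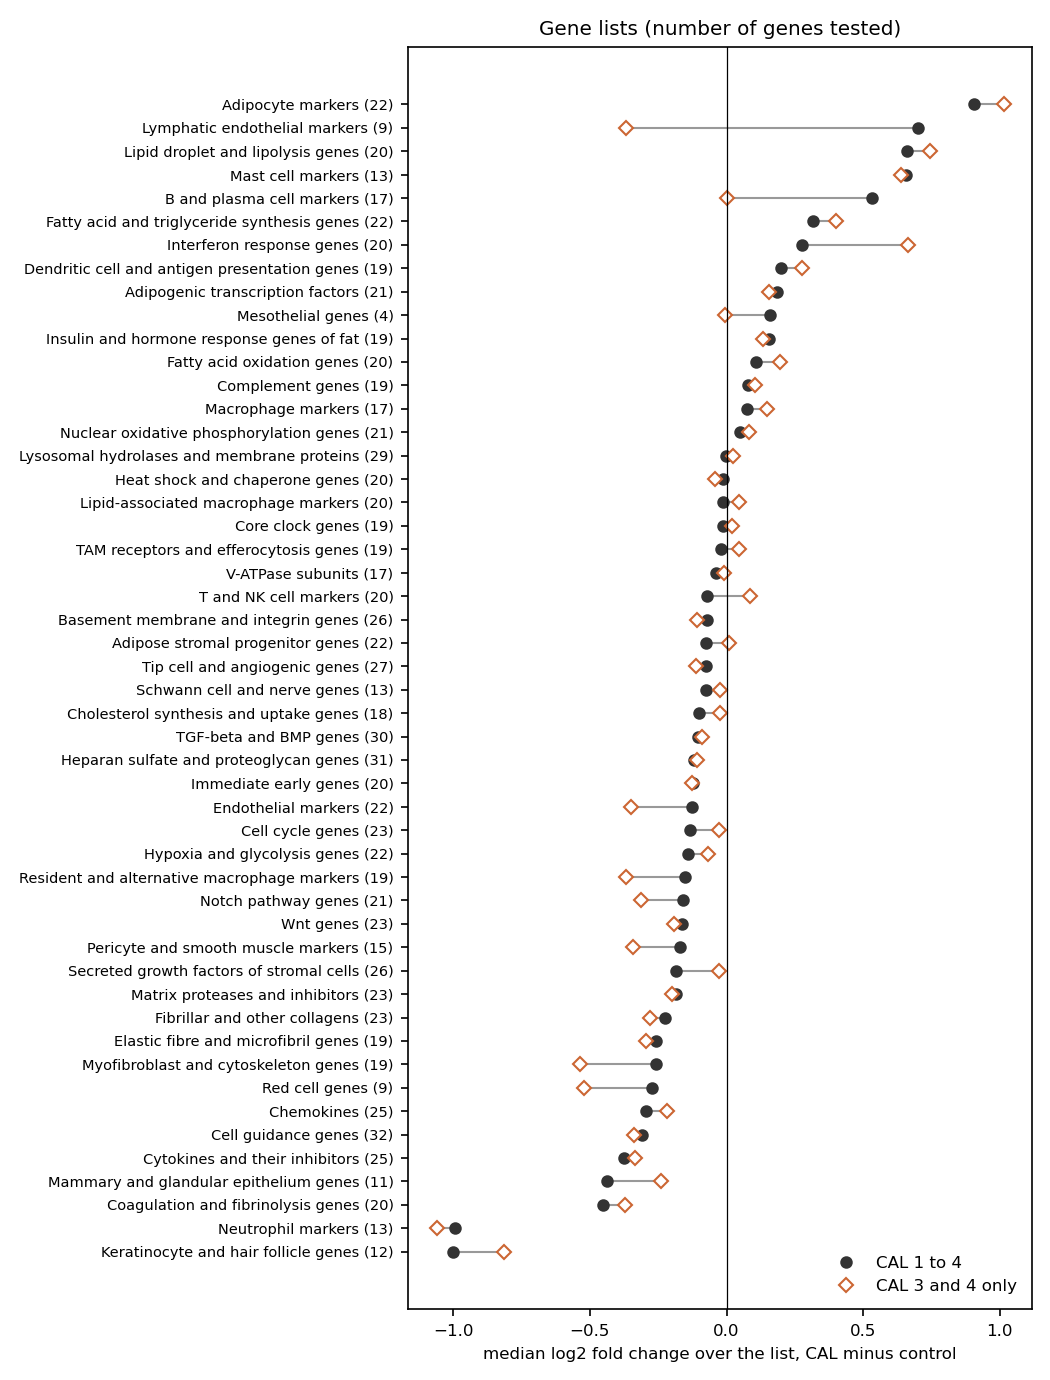
Median log2 fold change (CAL minus control) of 50 gene lists, with the number of tested genes in brackets; filled circles use CAL 1 to 4 and open diamonds CAL 3 and CAL 4. Adipocyte markers are the highest list under both and neutrophil markers stay near -1, while lymphatic and B cell lists move to 0 or below without CAL 1 and CAL 2; the skeletal muscle list (3.63 and -0.06) is off this scale and left out.

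The higher values of Atp6v0a1 and Grn were not shared by their gene groups. Of 17 proton pump subunits 5 had higher and 12 lower estimates (median -0.04). The 2 higher at an unadjusted p under 0.05 (7.01% of all genes) were Atp6v0a1 and Atp6v1b2 (0.15 ± 0.05). Of 29 lysosomal hydrolases and membrane proteins 14 were higher and 15 lower (median -0.00). The 2 higher at an unadjusted p under 0.05 were Psap, which encodes the saposins that help degrade sphingolipids (1588, 1606, 1519 and 1594 CPM in controls, 1816, 1857, 1859 and 1633 CPM in CAL, 0.18 ± 0.05), and Tfeb, the master regulator of lysosomal genes (0.31 ± 0.09). Tfeb stood at 24.6, 20.5, 19.2 and 19.2 CPM in controls and 25.1, 26.4, 25.8 and 26.0 CPM in CAL, so control 1 nearly reached the CAL range. Without CAL 1 and CAL 2, 20 of the 29 lysosomal genes had higher estimates (median 0.02), and 7 of the 17 pump subunits did (median -0.01). In each list 2 were then higher at an unadjusted p under 0.05 (4.56% of all genes).

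Macrophage genes had small differences as a list with all CAL libraries (median 0.07, 12 of 17 higher). Of these, 2 were higher at an unadjusted p under 0.05 (7.01% of all genes). Without CAL 1 and CAL 2, 14 were higher (median 0.15), 5 at that p (4.56% of all genes). Adgre1, the F4/80 antigen, stood at 480.1, 478, 484 and 466 CPM in controls and 533, 485, 598 and 612 CPM in CAL (0.22 ± 0.07) and CAL 2 lay next to control 3, the highest control. Lipid-associated macrophage markers had 9 of 20 higher (median -0.01), with Trem2, their lipid receptor, at -0.03 ± 0.14 and Spp1, osteopontin, at -0.50 ± 0.23. Without CAL 1 and CAL 2, 13 of 20 were higher (median 0.05), 2 at an unadjusted p under 0.05 (4.56% of all genes). Genes of the TAM receptors and of the uptake of dying cells had 5 of 19 higher and 1 lower at an unadjusted p under 0.05 (7.01% and 7.57% of all genes). Without overlap there were 4 and 1 (3.61% and 3.75%), and the median was -0.02. These included the cholesterol exporters Abca1 and Abcg1. Abca1 stood at 701, 679, 611 and 715 CPM in controls and 919.6, 855, 924 and 792 CPM in CAL (0.37 ± 0.07), and Abcg1 had an estimate of 0.39 ± 0.10. Stab2, a scavenger receptor of macrophages and lymphatic endothelium, stood at 6.08, 6.77, 6.71 and 6.02 CPM in controls and 22.4, 15.2, 11.9 and 19.7 CPM in CAL (1.44 ± 0.25). In CAL 3 Stab2 lay above the controls, where the lymphatic genes Prox1 and Mmrn1 were lowest. Gas6, the bridging ligand of Axl, was lower in all 4 CAL libraries, with 170.0, 188, 226 and 175 CPM in controls and 127, 155, 152 and 121 CPM in CAL (-0.45 ± 0.12). Mertk, the related receptor, had 0.20 ± 0.10 with overlap. Cholesterol synthesis and uptake genes had 12 of 18 lower estimates, 1 (Mvd) at an unadjusted p under 0.05 (7.57% of all genes).

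Resident and alternative macrophage markers had 2 of 19 genes higher and 2 lower at an unadjusted p under 0.05 (7.01% and 7.57% of all genes). The median was -0.15, -0.34 without control 1 and 0.068 without control 3. Without CAL 1 and CAL 2 it was -0.37, with 12 of 19 lower. At that p, 2 were then higher and 3 lower (4.56% and 4.12% of all genes). Ear2, a ribonuclease of monocytes and eosinophils, stood at 113, 78.9, 81.6 and 108 CPM in controls and 142, 135, 149 and 189.9 CPM in CAL (0.69 ± 0.15), and Selenop, the selenium transport protein, had 0.25 ± 0.07. Chil3, a chitinase-like protein, stood at 14.3, 4.82, 7.83 and 74.9 CPM and 2.41, 4.27, 3.20 and 3.38 CPM (-2.94 ± 0.77). Control 4 set the control mean of Chil3, and control 2 lay close to the highest CAL library.

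Neutrophil genes had lower estimates in all 13 tested cases, 5 at an unadjusted p under 0.05 (7.57% of all genes) and 1 without overlap (3.75% of all genes); without CAL 1 and CAL 2, 13 were lower and 1 was at that p (4.12% of all genes). The median was -0.99, -1.06 without CAL 1 and CAL 2, and -0.60 without control 4. Mmp8, neutrophil collagenase, was the gene without overlap: 34.4, 27.6, 30.5 and 56.3 CPM in controls and 11.1, 16.2, 23.2 and 6.60 CPM in CAL (-1.38 ± 0.37). S100a9, a calcium-binding alarmin, stood at 22.7, 38.4, 31.9 and 95.0 CPM in controls and 12.4, 16.8, 28.2 and 7.80 CPM in CAL (-1.53 ± 0.48). Control 4 had the most and CAL 4 the least, and CAL 3 lay within the control range. Relative to the control mean, the list stood at -0.40, -0.28, -0.35 and 1.03 in controls and -0.62, -0.89, -0.42 and -1.73 in CAL. Control 4, high in neutrophil genes, also had the highest keratinocyte sum (333 CPM), and the part of that in this result was not tested.

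Cytokine and chemokine genes pointed the same way. Of 25 cytokines and inhibitors 21 had lower estimates, 13 at an unadjusted p under 0.05 (7.57% of all genes) and 6 without overlap (3.75% of all genes). With CAL 3 and CAL 4 alone, 16 were lower and 9 higher, with 5 lower at that p (4.12% of all genes). None was higher at that p in either comparison (median -0.37, -0.34 without CAL 1 and CAL 2). By library the list stood at -0.15, -0.03, 0.23 and -0.05 in controls and -0.88, -0.64, -0.22 and -0.79 in CAL, so CAL 3 was the one CAL library near the controls. Il13ra2, the decoy receptor of IL-13, stood at 0.794, 1.67, 2.97 and 2.22 CPM in controls and 0.671, 0.79, 0.502 and 0.623 CPM in CAL (-1.57 ± 0.33), and Il13ra1, the signalling receptor, had -0.37 ± 0.11. Il11, a profibrotic cytokine, was under 1 CPM in all but control 3: 0.372, 0.498, 4.05 and 0.954 CPM in controls against 0.138, 0.287, 0.236 and 0.152 CPM in CAL. Tnfsf11, the osteoclast factor RANKL, had -1.14 ± 0.32. Among 25 chemokines 20 were lower in either comparison (median -0.29 with all CAL libraries). At an unadjusted p under 0.05, 4 were lower with all CAL libraries (7.57% of all genes) and 1 without CAL 1 and CAL 2 (4.12%). Ccl8, a monocyte attractant, stood at 62.2, 52.9, 56.5 and 60.0 CPM in controls and 31.6, 23.7, 44.8 and 35.3 CPM in CAL (-0.77 ± 0.17), and Ccl12, Ccl7 and Cxcl5 had -1.14 ± 0.32, -1.11 ± 0.38 and -1.56 ± 0.59.

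Coagulation and fibrinolysis genes had 15 of 20 lower estimates, 8 at an unadjusted p under 0.05 (7.57% of all genes) and 6 without overlap (3.75%), against 1 higher at that p (7.01%). With CAL 3 and CAL 4 as the only CAL libraries, 7 were lower and 1 higher at that p (4.12% and 4.56% of all genes). The median was -0.45, -0.37 without CAL 1 and CAL 2, and -0.29 without control 3. Besides Tfpi2, F5, coagulation factor V, stood at 22.5, 18.2, 22.3 and 33.7 CPM in controls and 10.3, 16.5, 10.5 and 6.93 CPM in CAL (-1.13 ± 0.29). F2r, the thrombin receptor, had -0.58 ± 0.16, with CAL 3 at 52.7 CPM beside a lowest control of 52.4 CPM. F7, factor VII, was the higher gene (0.40 ± 0.10). Complement genes had 2 of 19 higher and 0 lower at an unadjusted p under 0.05 (7.01% and 7.57% of all genes). The 2 were C4b (0.41 ± 0.16) and Cfd, the adipocyte protease adipsin (0.94 ± 0.40). Without CAL 1 and CAL 2, 4 were higher at that p (4.56%).

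Matrix genes were mostly lower, with exceptions. Of 23 collagens and collagen enzymes 19 had lower estimates (median -0.22). At an unadjusted p under 0.05, 8 were lower (7.57% of all genes) and 2 higher (7.01%). Without CAL 1 and CAL 2, 21 were lower, 5 at that p (4.12%), and 0 were higher at that p. The list stood at -0.32, 0.06, 0.22 and 0.04 in controls and -0.43, -0.09, -0.15 and -0.51 in CAL, so control 1 lay below CAL 2 and CAL 3. Col14a1, a collagen that organises fibrils, stood at 421, 362, 590.4 and 460.4 CPM in controls and 219, 295, 315 and 271 CPM in CAL (-0.74 ± 0.15), and Col8a1, a short-chain collagen, had -1.12 ± 0.28. Col15a1 was higher (0.26 ± 0.08) and the major fibril gene Col1a1 had 0.05 ± 0.11, CAL 4 being lower than the other 3 CAL libraries; that estimate was -0.14 without CAL 1 and CAL 2. For elastic fibre genes 17 of 19 were lower, 7 at an unadjusted p under 0.05 (7.57% of all genes), and 3 at that p without CAL 1 and CAL 2 (4.12%). Their median was -0.26, and -0.15 without control 3. Fbn1, fibrillin-1, stood at 1103, 1260.4, 1415 and 1320.4 CPM in controls and 820.5, 1054, 1019 and 885 CPM in CAL (-0.43 ± 0.10), Fbn2 had -0.81 ± 0.23 and Ltbp2, a microfibril protein, -1.11 ± 0.33. Fn1, fibronectin, stood at 2023, 2045, 2449 and 2253 CPM and 1436, 1859, 1918 and 1459 CPM (-0.39 ± 0.11), the groups lying apart. Vcan, the large proteoglycan of provisional matrix, stood at 335, 386, 567 and 394 CPM in controls and 123, 259, 222 and 219 CPM in CAL (-1.03 ± 0.24). Within the 31 heparan sulfate and proteoglycan genes 9 were lower at an unadjusted p under 0.05 (7.57% of all genes) and 3 higher (7.01%). Without CAL 1 and CAL 2 these were 3 (4.12%) and 4 (4.56%). Hs6st1 and the syndecan Sdc3 (0.34 ± 0.09) were on the higher side, and Vcan and the chain polymerase Ext1 (-0.34 ± 0.09) on the lower.

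Contractile and protease genes of the stroma had lower estimates too. Of 19 myofibroblast and cytoskeleton genes 17 were lower, 6 at an unadjusted p under 0.05 (7.57% of all genes). Without CAL 1 and CAL 2, 17 were lower, 5 at that p (4.12%). The median was -0.26, -0.54 without CAL 1 and CAL 2, -0.39 without CAL 1 and -0.43 without control 1. By library the list stood at -0.41, -0.02, 0.32 and 0.11 in controls and -0.53, -0.08, -0.26 and -1.03 in CAL. CAL 4 was the lowest, and control 1 lay below CAL 2 and CAL 3, so the groups overlapped. Cthrc1, a secreted protein of activated fibroblasts, had -0.84 ± 0.24, and Acta2, smooth muscle actin, -0.71 ± 0.29 with overlap. Matrix proteases and inhibitors were lower in 18 of 23 cases, 4 at an unadjusted p under 0.05 (7.57% of all genes). Mmp9 (-1.12 ± 0.39) and Timp1 (-0.59 ± 0.23) were among the 4. Without CAL 1 and CAL 2, 19 were lower, 3 at that p (4.12%). Stromal progenitor genes were divided, with 7 higher and 15 lower. At an unadjusted p under 0.05 there were 2 each way, beside 7.01% higher and 7.57% lower of all genes. Without CAL 1 and CAL 2, 12 were higher and 10 lower, again 2 each way at that p. Gsn, gelsolin, stood at 394, 375, 543 and 374 CPM in controls and 604, 619.5, 552 and 754 CPM in CAL (0.59 ± 0.14), and Thy1, a progenitor surface antigen, at 67.7, 91.3, 98.7 and 85.3 CPM and 47.8, 65.9, 70.3 and 48.0 CPM (-0.56 ± 0.16).

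Signalling genes of the stroma had estimates in both directions. Gdf10, a TGF-beta family ligand, stood at 2.67, 1.77, 4.49 and 2.48 CPM in controls and 17.5, 12.6, 7.06 and 12.5 CPM in CAL (2.12 ± 0.41), with CAL 3 the nearest to the controls. Fgf10, a growth factor of preadipocytes, stood at 3.45, 1.94, 2.31 and 1.44 CPM and 7.51, 5.48, 4.86 and 9.78 CPM (1.60 ± 0.29), all CAL libraries above all controls. Bmp2, another family ligand, had -1.22 ± 0.34, and of 30 TGF-beta and BMP genes 2 were higher and 6 lower by that measure (unadjusted p under 0.05), or 2 and 2 without CAL 1 and CAL 2. Of the 26 secreted growth factors 7 were lower and 2 higher at that p (4 and 2 without CAL 1 and CAL 2), with the neurotrophin Bdnf at -1.22 ± 0.39. The median of the growth factors was -0.19, -0.023 without control 3 and -0.03 without CAL 1 and CAL 2. Of 23 Wnt genes 13 had lower and 10 higher estimates, 6 lower and 2 higher with such a p (4 and 0 without CAL 1 and CAL 2). Beside the counts of these signalling lists, 7.57% of all genes were lower and 7.01% higher at that p. Without CAL 1 and CAL 2 those shares were 4.12% and 4.56%. Sfrp2, a secreted Wnt modulator, stood at 97.1, 70.3, 132 and 90.4 CPM in controls and 44.4, 54.3, 56.9 and 45.0 CPM in CAL (-0.96 ± 0.19), Lgr5, an R-spondin receptor, had -1.06 ± 0.31 and the ligand Wnt16 -1.32 ± 0.39.

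Cell guidance genes, the ephrin, semaphorin, Slit and netrin systems that steer axons and vessel sprouts, had 28 of 32 lower estimates. Of these 11 were lower at an unadjusted p under 0.05 (7.57% of all genes), 6 without overlap (3.75%) and 7 called by DESeq2 (1.49%), with none higher at that p (median -0.31, -0.19 without control 3). The list stood at -0.17, -0.08, 0.28 and -0.03 in controls and -0.47, -0.35, -0.30 and -0.52 in CAL, so that every CAL library was below every control. Without CAL 1 and CAL 2, 28 of 32 were again lower (median -0.34), 9 at an unadjusted p under 0.05 (4.12% of all genes). Robo1, a Slit receptor, stood at 39.4, 58.0, 67.1 and 53.5 CPM in controls and 23.0, 36.3, 34.8 and 24.2 CPM in CAL (-0.88 ± 0.23), and Sema3f, a repulsive semaphorin, had -0.47 ± 0.13. Efnb2, the arterial ephrin, stood at 7.59, 8.04, 13.5 and 8.32 CPM and 5.23, 6.77, 5.27 and 4.08 CPM (-0.81 ± 0.21).

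Notch pathway genes had 14 of 21 lower estimates, 8 of them at an unadjusted p under 0.05 (7.57% of all genes) and 5 without overlap (3.75%). Against these, 1 was higher at that p (7.01%). Without CAL 1 and CAL 2, 17 were lower, 7 at that p (4.12%), and 1 was higher at that p (4.56%). The median was -0.16, -0.31 without CAL 1 and CAL 2, and -0.076 without CAL 4. Dll4, the endothelial ligand of the pathway, stood at 5.53, 5.68, 6.95 and 4.97 CPM in controls and 4.03, 4.22, 3.60 and 3.01 CPM in CAL (-0.64 ± 0.14, edgeR adjusted p = 0.132, DESeq2 0.00314). CAL 4 had the least and the groups did not overlap. Its counts may include reads of Gm14207, which overlaps it. Unc5b, a netrin receptor, had -0.84 ± 0.24 and the receptor Notch4 -0.37 ± 0.14. The receptor Notch1 had -0.14 ± 0.08, and the target genes differed in sign, Hes1 at -0.40 ± 0.16 and Hey1 at 0.23 ± 0.20.

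Vessel genes depended on the libraries used, and the endothelial median ran from -0.21 without CAL 1 to -0.036 without control 3. Of 22 endothelial markers 15 were lower with all CAL libraries (median -0.12), 3 at an unadjusted p under 0.05 (7.57% of all genes). Without CAL 1 and CAL 2, 21 were lower (median -0.35), 7 at that p (4.12% of all genes). Pecam1, the adhesion molecule CD31, stood at 126, 127, 143 and 134 CPM in controls and 144, 116, 88.7 and 103 CPM in CAL, so CAL 1 matched the highest control and CAL 2, 3 and 4 lay below all controls. Cdh5, VE-cadherin, showed the same split, with 79.7, 76.1, 87.4 and 71.8 CPM in controls and 83.3, 63.6, 58.5 and 54.5 CPM in CAL, while Ecscr, a regulator of endothelial migration, was lower in all 4 (22.9, 29.1, 28.9 and 26.2 CPM in controls, 12, 17.2, 19.7 and 12.3 CPM in CAL, -0.80 ± 0.17). Esam, a junction protein, had -0.80 ± 0.21. Among 27 tip cell and angiogenic genes 5 were lower at an unadjusted p under 0.05 (7.57% of all genes) and 0 higher (median -0.07). Without CAL 1 and CAL 2, 4 were lower at that p (4.12%) and 0 higher. Esm1, a tip cell marker, stood at 2.40, 2.38, 3.84 and 1.71 CPM in controls and 0.379, 0.359, 1.43 and 0.395 CPM in CAL (-1.99 ± 0.50), CAL 3 being near the lowest control. Vegfc and the peptide Apln had -0.57 ± 0.16 and -1.19 ± 0.40, while Vegfa and its receptor Kdr had -0.07 ± 0.15 and 0.02 ± 0.15, with overlap. Pericyte and smooth muscle markers had 10 of 15 lower estimates, 2 at an unadjusted p under 0.05 (7.57% of all genes). Without CAL 1 and CAL 2, 12 were lower, 2 at that p (4.12%).

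Lymphatic genes split the CAL group. Prox1, the transcription factor of lymphatic identity, stood at 1.44, 1.08, 0.585 and 0.912 CPM in controls and 5.10, 5.17, 0.0738 and 2.83 CPM in CAL. Mmrn1, a secreted protein of lymphatic endothelium, stood at 6.68, 3.21, 2.48 and 3.24 CPM and 16.2, 19.2, 0.207 and 12.8 CPM. CAL 1, 2 and 4 exceeded every control in both genes, and CAL 3 was the lowest of the 8 libraries. Among 9 tested markers 1, Stab2, was higher and 1, Pdpn (-0.64 ± 0.23), lower at an unadjusted p under 0.05 (7.01% and 7.57% of all genes). Their median was 0.70 with all CAL libraries, 0.42 without CAL 1 and -0.37 without CAL 1 and CAL 2.

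**Figure D4:**
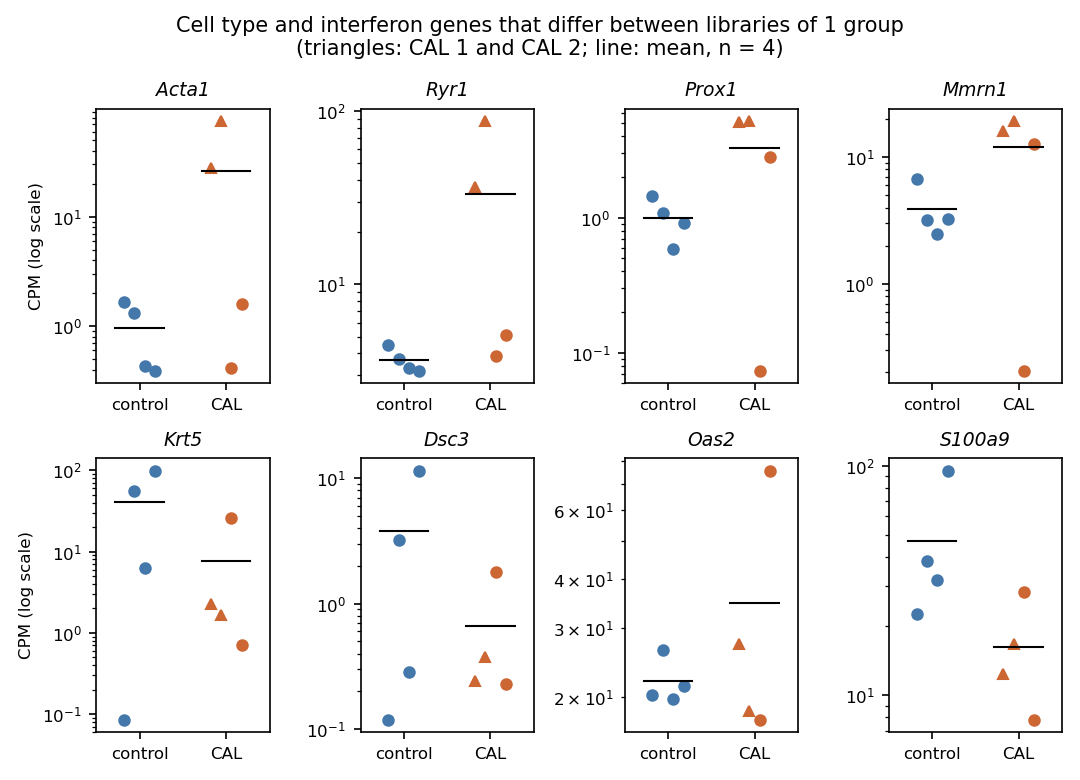
CPM on log axes for 8 genes that differ between libraries of 1 group: Acta1 and Ryr1 (skeletal muscle), Prox1 and Mmrn1 (lymphatic endothelium), Krt5 and Dsc3 (keratinocytes), Oas2 (interferon response) and S100a9 (neutrophils). Triangles are CAL 1 and CAL 2 and lines are means of 4 libraries; the triangles alone are high for Acta1 (28.1 and 74.5 CPM), 1 circle drops to 0.0738 CPM for Prox1 and 1 rises to 75.5 CPM for Oas2.

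Lymphocyte genes varied within both groups. All 17 B and plasma cell markers had higher estimates (median 0.53), 2 at an unadjusted p under 0.05 (7.01% of all genes). Without CAL 1 and CAL 2, 8 of 17 were higher with a median of 0.00, and 2 were at that p (4.56%). With 1 library left out the median ran from 0.25 (CAL 1) to 1.21 (control 4). The list stood at -0.05, 0.06, -1.26 and 1.25 in controls and 1.37, 0.80, 0.27 and 0.61 in CAL, with the lowest and a near-highest value both in controls. Blnk, an adaptor of the B cell receptor also present in macrophages, was without overlap (113, 128, 118 and 131 CPM in controls, 149, 154, 158 and 171 CPM in CAL, 0.37 ± 0.07). Fcrl5, a plasma cell receptor, had 1.69 ± 0.61, and Jchain, which joins antibody multimers, 0.53 ± 0.30. The 93 heavy chain variable segments had a median of 0.46, and -0.33 without CAL 1 and CAL 2. T and NK cell markers had 15 of 20 lower estimates (median -0.07). Only 1 was lower at an unadjusted p under 0.05 (7.57% of all genes): Gzma, a cytotoxic granule protease (-0.83 ± 0.25). Without CAL 1 and CAL 2 the direction turned, with 12 of 20 higher (median 0.09) and 0 at that p either way. Mast cell markers had 12 of 13 higher (median 0.66, 0.42 without CAL 4), 4 at that p (7.01% of all genes). Without CAL 1 and CAL 2, 11 were higher and 0 at that p (4.56% of all genes). Tpsb2, mast cell tryptase, stood at 20.4, 15.1, 23.7 and 15.9 CPM in controls and 32.3, 40.8, 17.9 and 45.0 CPM in CAL, so CAL 3 lay among the controls.

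Interferon response genes had 17 of 20 higher estimates with none at an unadjusted p under 0.05 (median 0.28, 0.67 without CAL 1 and CAL 2, -0.17 without CAL 4 and 0.56 without control 2). The list stood at 0.23, -0.51, -0.19 and 1.2 in CAL 1 to 4, and only CAL 4 exceeded the highest control (0.50). Oas2, an antiviral enzyme, stood at 20.3, 26.4, 19.8 and 21.4 CPM in controls and 27.3, 18.5, 17.5 and 75.5 CPM in CAL, an estimate of 0.66 ± 0.44 that was -0.059 without CAL 4. Genes of dendritic cells and antigen presentation were higher in 17 of 19 cases, 1 at an unadjusted p under 0.05 (7.01% of all genes). That gene was H2-D1 (0.21 ± 0.06). Without CAL 1 and CAL 2, 16 were higher, 4 at that p (4.56%).

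Genes of skeletal muscle, keratinocytes, red cells and glandular epithelium varied between libraries of the same group. All 13 tested skeletal muscle genes had higher estimates, 10 at an unadjusted p under 0.05 (7.01% of all genes). Their median of 3.63 became -0.06 without CAL 1 and CAL 2, where 0 were at that p. Ryr1, the calcium release channel of muscle, stood at 4.44, 3.69, 3.32 and 3.18 CPM in controls and 36.5, 87.2, 3.87 and 5.09 CPM in CAL. Keratinocyte and hair follicle genes summed to 45.5, 200.5, 76.4 and 333 CPM in controls and 89.2, 79.1, 143 and 73.2 CPM in CAL, highest in controls 2 and 4, and Vsig8 was the 1 of 12 at an unadjusted p under 0.05. Dsc3, a desmosomal cadherin, reached 11.5 CPM in control 4 and 0.118 CPM in control 1. Red cell genes summed to 1131, 365, 1444 and 336 CPM in controls and 797, 930.0, 274 and 888 CPM in CAL, without order between groups. Mammary and glandular epithelium genes summed to 17.8, 45.7, 32.1 and 103 CPM in controls and 59.4, 20.1, 55.3 and 19.7 CPM in CAL, and the groups overlapped. Schwann cell and nerve genes had 3 of 13 lower at an unadjusted p under 0.05 and 0 higher, Cdh19 (-1.07 ± 0.27) and Ncam1 (-1.05 ± 0.30) among them.

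Lists of stress, growth and clock genes had small medians. Immediate early genes had 16 of 20 lower estimates, 0 at an unadjusted p under 0.05 (median -0.12, -0.0090 without control 3 and -0.22 without CAL 3); control 3 was the highest library of both groups. Heat shock genes had 1 of 20 lower at that p (7.57% of all genes), Hspb1, and 2 without CAL 1 and CAL 2 (4.12%). Hypoxia and glycolysis genes had 2 of 22 lower at that p (7.57% of all genes), Hif1a (-0.20 ± 0.08) and the glucose carrier Slc2a1 (-0.47 ± 0.20). Without CAL 1 and CAL 2, 16 of the 22 had lower estimates, but 0 were lower and 2 higher at that p (4.12% and 4.56% of all genes). Cell cycle genes had 0 of 23 in either direction. Of 19 clock genes 4 were higher and 1 lower at an unadjusted p under 0.05 (7.01% and 7.57% of all genes). Without CAL 1 and CAL 2 there were 0 and 0. Cry2, a repressor of the clock, was without overlap at 15.7, 13.7, 14.8 and 16.7 CPM in controls and 19.1, 18.1, 18.1 and 18 CPM in CAL (0.27 ± 0.10).

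**Figure D5:**
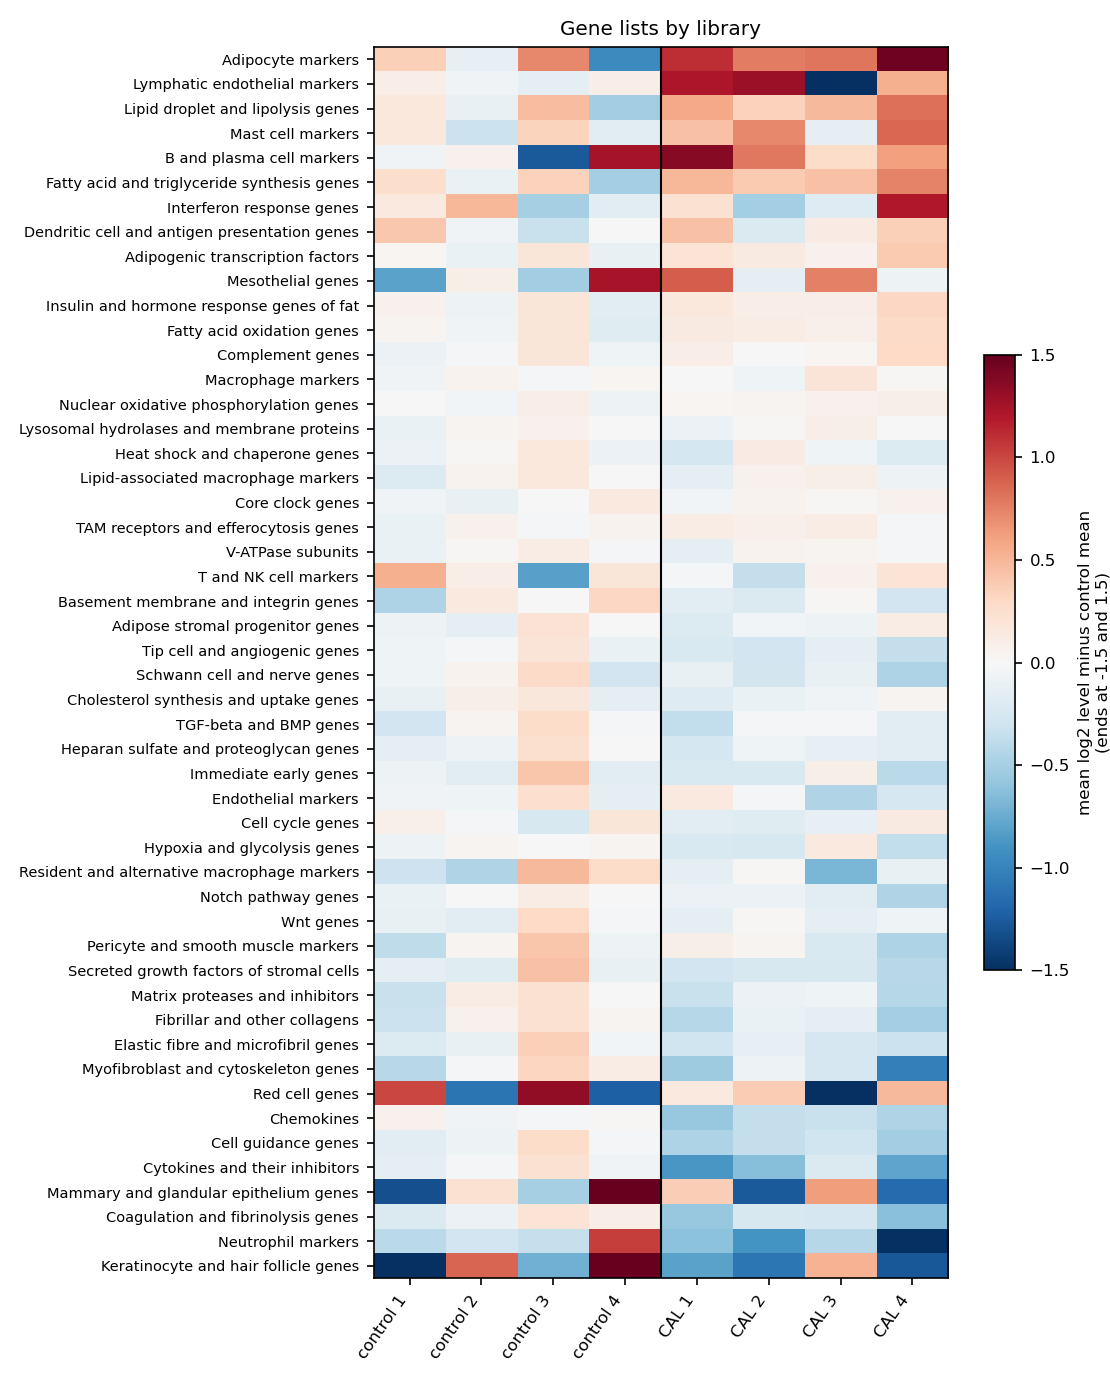
Mean log2 level of each of 50 gene lists (rows) in each library (columns), minus the mean of the 4 controls; red is higher, blue lower, and colours end at -1.5 and 1.5. Adipocyte markers are red in all 4 CAL columns (0.77 to 1.46) and cell guidance genes blue (-0.52 to -0.30), whereas lymphatic genes are blue in CAL 3 (-2.10) and interferon genes red in CAL 4 (1.2).

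By class of transcript, long non-coding RNAs leaned to higher estimates: of 1207 tested 98 were higher and 25 lower at an unadjusted p under 0.05 (8.12% and 2.07%), with a median log2 fold change of 0.11. Over all genes these shares were 7.01% and 7.57%, so the higher share was near that of all genes and the lower share was smaller. Of 41 small nuclear RNAs 8 were higher (19.5%) and 0 lower at that p (median 0.24, and 0.11 without CAL 1 and CAL 2). Of 133 microRNA genes 13 were higher (9.77%) and 4 lower (3.01%). The libraries captured exonic sequence, and whether reads at small RNA genes came from the small RNAs themselves was not tested. Protein-coding genes had 1095 of 14782 higher (7.41%) and 1294 lower (8.75%). Pseudogenes had smaller shares than all genes in both directions, with 41 of 1582 higher (2.59%) and 67 lower (4.24%), at a median of -0.03.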

How the data were processed

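RNA of 12 grafts was isolated with Trizol, and libraries were prepared with a SureSelectXT RNA Direct kit, which captures exonic sequence, per the labels. The submitters' processing notes name HISAT2, StringTie and the build mm10, without versions. The deposited table gives counts, FPKM and TPM for each gene, per the file headers. The deposited counts are whole and never 0, and their totals differ between libraries. The sources used here do not give how they were derived from StringTie or whether strand was used. Whether genes with a count of 0 were left out is not given either. Some listed genes are absent from the table, which holds 13 of 22 skeletal muscle and 12 of 20 keratinocyte genes. The FPKM and TPM columns, which the authors scaled for length and depth, did not enter any result.

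edgeR 4.0.16 (R 4.3.3) was run on the counts with TMM scaling, its default filterByExpr and the robust quasi-likelihood test on all 12 libraries in 1 fit. P-values were Benjamini-Hochberg adjusted over 18551 genes, with calls at an adjusted p under 0.05. The SE is the log2 fold change divided by the root of the F statistic. The comparison without CAL 1 and CAL 2 was filtered, scaled and fitted anew (18719 genes). The 51 gene lists are described by counts and medians and were not tested. The comparison, lists and tests were chosen with earlier results of these data known.

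Named genes are the 12 with the smallest p per direction among genes without overlap between groups, the 6 such without CAL 1 and CAL 2, up to 4 of smallest p per list, and 22 set for the subject, without Gm and Rik genes. Of these 229 genes, 87 overlap another RefSeq gene, so their counts are less certain. A few genes are not reported here. Positions are from RefSeq on GRCm38.p6, matched by gene ID for 18509 genes.

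Alternatives were other scalings and filters, DESeq2 1.42.0, voom with sample weights (limma 3.58.1), only the groups compared, a replicate block, the muscle list as a covariate, muscle and keratinocyte genes removed, a test against a 1.2-fold change, and each library left out in turn. Leaving out CAL 3 and CAL 4, leaving out CAL_Dll4i 3 besides CAL 1 and CAL 2, and leaving out single libraries of the reduced comparison were chosen after seeing the data. In simulated counts (18483 genes, 200 with a set change), edgeR found 21.6% at 1.5-fold, 69.0% at 2-fold and 78.2% at 4-fold, with 6 false calls; for DESeq2 the shares were 36.5%, 80.3% and 81.8%, with 41 false calls. Figures were drawn with matplotlib 3.10.9 in Python 3.11.15.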

Additional observations from a re-analysis of the deposited data

Results flagged for a closer look

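In 25 of 402 groups of 4 libraries checked, 1 library stood apart from the other 3: its gap to the nearest, divided by the range of the group on the log2 scale, passed the critical value of Dixon's test. Chance flags about 1 in 20 groups.

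Control 3 stood apart as the highest control for Ccl12 (15.8 CPM), Efnb2 (13.5 CPM) and Gsn (543 CPM), for immediate early genes (0.42 above the control mean on the log2 scale) and for secreted growth factors of stromal cells (0.44 above it), and as the lowest for Mertk (216 CPM). Control 1 was the lowest for Cidea (0.237 CPM), Reg3g (22.3 CPM), Spp1 (469 CPM) and the actin-binding gene Tagln (2.10 CPM), and the highest for Notch1 (143 CPM). Control 4 was the lowest for Notch4 (10.5 CPM) and the highest for neutrophil markers (1.03 above the control mean on the log2 scale).

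CAL 3 stood apart as the lowest CAL library for Prox1 (0.0738 CPM), Mmrn1 (0.207 CPM), Tpcn1 (147 CPM) and the red cell genes (-1.62 relative to the control mean on the log2 scale), and as the highest for Esm1 (1.43 CPM) and the myeloid lectin Cd33 (29.7 CPM). CAL 4 was the highest for Lep (31.8 CPM) and the lowest for Phldb2 (42.2 CPM). CAL 1 was the highest for Cdh19 (2.00 CPM) and Cry2 (19.1 CPM) and the lowest for Trem2 (102 CPM), and CAL 2 was the highest for Reg3g (28.7 CPM).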

How the results depend on the processing

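The number of called genes depended on the tool. DESeq2 called 340 genes higher and 276 lower, voom 55 and 17, and edgeR 1 and 0. Without CAL 1 and CAL 2, edgeR called 0 each way (853 higher and 771 lower at an unadjusted p under 0.05) and DESeq2 108 and 77. The count of higher genes was 0 with only control and CAL libraries in the fit, without CAL_Dll4i 3 besides CAL 1 and CAL 2, and without CAL 3 and CAL 4. With 1 library left out, 0 to 3 genes were called higher and 0 to 3 lower. Besides Vsig8 these were Evl, Il13ra2, Tagln, Phldb2 and Arhgap39 without control 1, Epha5 without control 4, Axl without CAL 2, and Cd33 and F2r without CAL 3. In the comparison without CAL 1 and CAL 2, leaving out 1 more library gave 0 to 1 higher and 0 lower; the 1 was Siglec1 without CAL 3, where the lone CAL library is assumed to vary like the other groups. Cd33, Evl, Siglec1 and Tagln were chosen after their values were seen.

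Deviations of same-numbered control and CAL libraries correlated at 0.12, -0.031, -0.043 and -0.24 across genes, and no CAL library correlated best with its own number. Whether samples were paired by animal or batch cannot be told from these correlations. With the replicate block 1 gene was called higher (Vsig8, edgeR adjusted p = 0.0496) and 0 lower.

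Signs reversed for 6 of the 150 genes printed in the text, and the cause was not tested; further genes under the naming rule were not followed here. Without CAL 1 and CAL 2 the log2 fold changes were -0.14 for Col1a1 (DESeq2 -0.13), -0.21 for Kdr (DESeq2 -0.20), 0.046 for Trem2 (DESeq2 0.050) and 0.028 for Vegfa (DESeq2 0.031). Without CAL_Dll4i 3 as well they were -0.14, -0.21, 0.046 and 0.028. With the muscle list as a covariate they were -0.034, -0.069, 0.041 and 0.055. Kdr was -0.012 by voom and -0.0059 with the replicate block, and Klra17 -0.039 without CAL 3 and CAL 4. With 1 library left out Col1a1 ran from -0.020 to 0.16, Kdr from -0.14 to 0.16, Oas2 from -0.059 (without CAL 4) to 0.88, Trem2 from -0.13 to 0.073 and Vegfa from -0.21 to 0.033. Of 3442 alternative values of the printed genes 3218 kept their direction and side of the threshold, 190 passed it and 5, all of Vsig8, lost it. No alternative moved the median of all genes by over 0.1 on the log2 scale. Genes under the count filter were not tested, which is where depth sets a limit.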
